A study of Mus musculus with 6 samples.

Results

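The genes described here encode trans-synaptic organizers, the adhesion molecules and secreted linkers that join the presynaptic to the postsynaptic membrane. They are 9 of the 53640 gene symbols listed in all 6 count tables: the neurexins Nrxn2 and Nrxn3, the neuroligins Nlgn1 and Nlgn3, the cerebellins Cbln1, Cbln2 and Cbln4, and the olfactomedins Olfm1 and Olfm3. They were chosen by family, and Cbln2 and Olfm3 because earlier results of these data had them higher in treated tau than in control. That contrast is therefore given for all 9 genes as a description, with no p-values, and nothing is read from how many of them pass in it. RNA came from bulk brain tissue labelled PFC, with 3 groups of 2 mice aged 6 months and 1 library per mouse. Control mice had the genotype C57BL/6 x C3H and received vehicle. Tau mice were PS19(P301S), a line in which the mouse prion protein promoter drives mutant human tau, and received vehicle. Treated tau mice were PS19(P301S) and received WDR5-0103, a small molecule that binds WDR5. WDR5 is a shared subunit of the enzyme complexes that methylate histone H3 at lysine 4. The sources used here do not give the dose or length of treatment.

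Neurexins are presynaptic membrane proteins that bind postsynaptic neuroligins across the cleft, and these pairs set up and tune synapses. Cerebellins are secreted relatives of complement C1q that bridge neurexins to delta-type glutamate receptors such as the product of Grid1. Olfactomedins are secreted or membrane-associated glycoproteins of neurons, and Olfm1 and Olfm3 have been found with AMPA receptor complexes. In cortex, neuroligin 1 is mainly a protein of excitatory synapses, neuroligin 2 of inhibitory ones, and neuroligin 3 occurs at both.

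Total counts ranged from 17690811 to 34774643 per library, and all 9 genes passed the filter on low counts. The values are CPM, counts per 1000000 of the library total after TMM scaling, and n is 2 libraries per group throughout. Prnp, read as a check of the labels because its promoter drives the transgene, was at 876 CPM in control 2 and at 1472 to 1876.5 CPM in the 4 transgenic libraries. The library labelled control 1 had 1654 CPM, inside the transgenic range, which goes against its label. It also stood apart in olfactory bulb markers, whose sum was 147 CPM there and 9.73 to 13.3 CPM elsewhere, and tau 2 in striatal markers (405 CPM against 184 to 245) and oligodendrocyte markers (5673 CPM against 1494 to 3028). By the Y-linked Ddx3y (91.2 to 108 CPM against 0.115 to 0.391 CPM) and by Xist, the library labelled control 1 and both treated tau libraries came from males and the other 3 from females, so between treated tau and tau, treatment cannot be told apart from sex. The treated tau tables were also counted on a different symbol list (54134 symbols against 54429). The excitatory cortical markers Camk2a (956 to 1228 CPM) and Slc17a7 (891 to 1005 CPM) were abundant in every library, as was Gad1 among inhibitory markers.

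Promoter sequence was at hand for 5 of the 9 genes, from RefSeq on GRCm38.p6, the mm10 assembly. It is shown because the compound's target complexes act on a histone mark found at promoters. The genes shown are Olfm3, 1 of the 2 genes chosen for its level, and Cbln4. Of the 9 genes Cbln4 had the largest log2 fold change between treated tau and tau. Neither Olfm3 nor Cbln4 was called in that comparison. For the 2 genes that were, Nrxn2 and Cbln2, no promoter sequence was at hand. Each line gives the 250 bases before a transcription start that overlap no annotated exon, 5′ to 3′ on the gene's strand, with every CG in capitals. The windows are chr2:172043467-172043716, minus strand, for Cbln4 and chr3:114903828-114904077, plus strand, for Olfm3.
Cbln4: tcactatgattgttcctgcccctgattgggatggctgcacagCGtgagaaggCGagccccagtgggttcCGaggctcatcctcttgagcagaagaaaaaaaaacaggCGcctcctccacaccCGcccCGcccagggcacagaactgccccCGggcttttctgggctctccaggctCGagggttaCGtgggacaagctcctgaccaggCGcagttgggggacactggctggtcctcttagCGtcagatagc
Olfm3: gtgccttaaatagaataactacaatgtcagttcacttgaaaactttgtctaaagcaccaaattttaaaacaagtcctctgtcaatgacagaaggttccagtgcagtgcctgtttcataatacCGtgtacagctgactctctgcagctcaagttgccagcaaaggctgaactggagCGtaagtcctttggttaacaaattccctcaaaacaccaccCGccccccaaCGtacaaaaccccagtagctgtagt
The Cbln4 window held 11 CG, and 35.6% of the 32851 promoter windows of this length in the table held at least as many. The Olfm3 window held 4, which 62.2% of windows reached, and a second Olfm3 start, on chromosome 3 at 115080715 to 115080964, held 0. The motif searched was CG, which reads the same on both strands, and 92.1% of all windows held at least 1.

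Levels per length, as CPM per kb of exon sequence averaged over the 6 libraries, differed widely among the 9 genes. Olfm1 was highest at 205 CPM per kb. Nrxn3 (33.9), Cbln2 (28.4), Nrxn2 (22.3) and Nlgn1 (19.5) followed, then Olfm3 (11.6) and Nlgn3 (8.53), and Cbln4 (2.38) and Cbln1 (1.19) were the lowest. Among the relatives outside the list, Olfm2 had 24.0 CPM per kb, Nlgn2 22.4 and Cbln3 0.160. Counts behind single values ran from 28 for Cbln1 in tau 2 to 25947 for Olfm1 in treated tau 1.

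**Figure D1:**
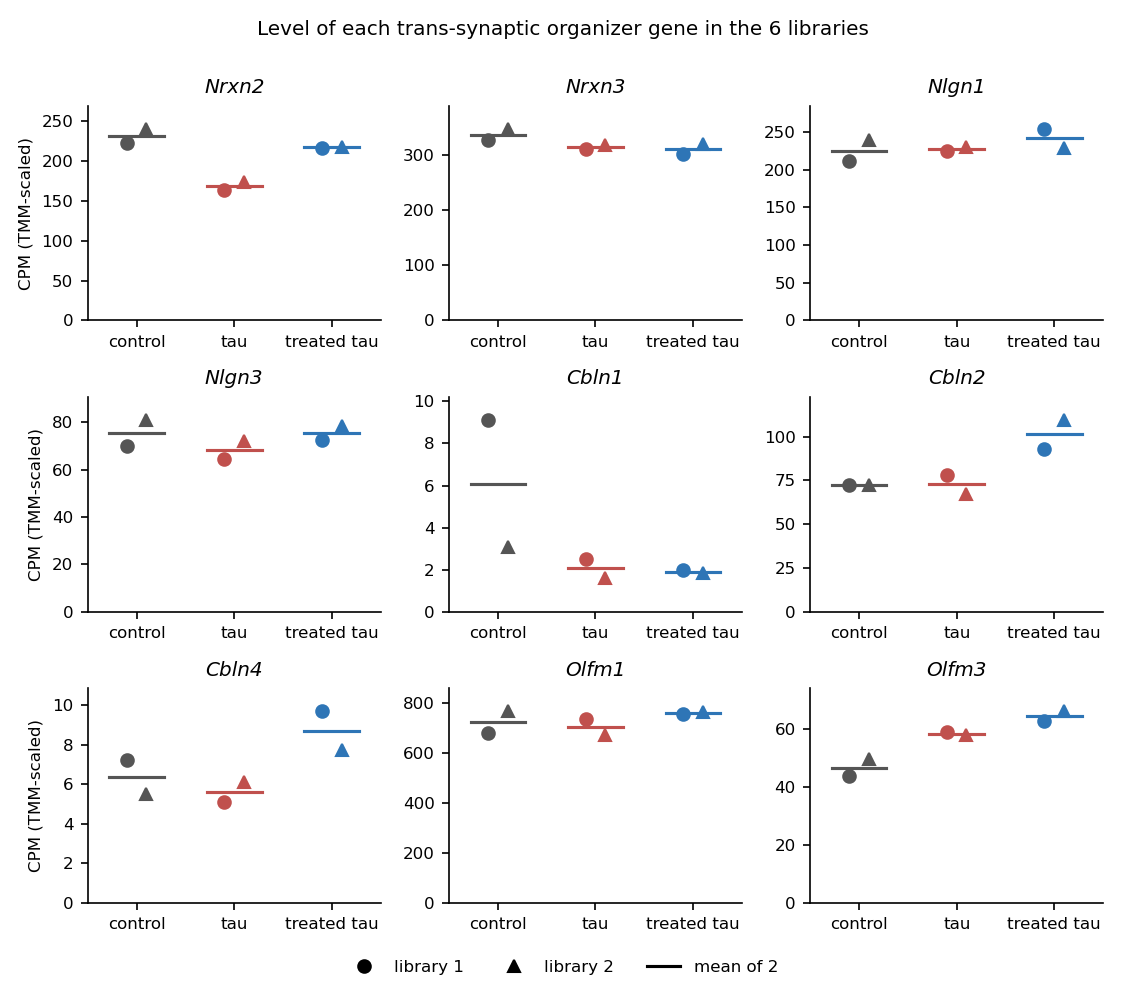
CPM of each of the 9 genes (vertical axis, from 0, one panel per gene) in the control, tau and treated tau groups, with 1 symbol per library and a line at the mean of the 2. Nrxn2 is lowest in the 2 tau libraries, Cbln2 and Olfm3 are highest in the 2 treated tau libraries, and Cbln1 is highest in the library labelled control 1.

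Nrxn2, a presynaptic neurexin (chromosome 19, 6418731 to 6544169), measured 223 CPM (the library labelled control 1) and 240.45 CPM (control 2) in the control pair. The tau pair measured 164 and 174 CPM, and the treated tau pair 217 and 218 CPM. Both tau libraries lay below all of the other 4. Means were 232 ± 12.4 CPM in control, 169 ± 7.19 in tau and 217 ± 0.522 in treated tau (SD). Nrxn2 rose in treated tau against tau by 0.36 ± 0.08 in log2 (SE), at an adjusted p of 0.0294 in the edgeR quasi-likelihood test, 1.29-fold. Against control, tau had a log2 fold change of -0.46 ± 0.08, which did not pass (adjusted p = 0.395), although Nrxn2 ranked number 9 of 20694 genes by p there. DESeq2 called it lower in tau (adjusted p = 0.000813). The gene makes long alpha and short beta forms from separate promoters, and counts per gene do not separate them.

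Nrxn3, another neurexin (chromosome 12, 88722876 to 90334935), measured 326 and 347 CPM in the control pair, 311 and 317 in the tau pair, and 300.5 and 319 in the treated tau pair. The control libraries were the highest, by a small margin, and tau and treated tau overlapped. The log2 fold changes were -0.10 ± 0.07 (tau over control, adjusted p = 0.645) and -0.02 ± 0.07 (treated tau over tau, adjusted p = 0.968).

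Among the neuroligins, neither Nlgn1 nor Nlgn3 passed in either test. Nlgn1 (chromosome 3, 25426215 to 26332460) had 211 and 239 CPM in the control pair, 225 and 231 in the tau pair and 254 and 229 in the treated tau pair, and each group overlapped the others. The log2 fold changes were 0.02 ± 0.09 (tau over control, adjusted p = 0.967) and 0.09 ± 0.09 (treated tau over tau, adjusted p = 0.81). An antisense gene, A830092H15Rik, overlaps 1362 bases of Nlgn1 exons and was itself counted 26 to 43 times, and the sources used here do not say whether counting used strand.

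Nlgn3 (X chromosome, 101299168 to 101325963) had 69.9 and 80.9 CPM in the control pair, 64.6 and 72.1 in the tau pair and 72.5 and 78.5 in the treated tau pair. The treated tau libraries lay just above the tau libraries and within the range of control. The log2 fold change was -0.14 ± 0.10 for tau against control (adjusted p = 0.643) and 0.15 ± 0.10 for treated tau against tau (adjusted p = 0.699). Nlgn3 is X-linked and the latter comparison sets males against females. Nlgn3 shares 40.9% of its 50-base words with transcripts of other genes, so its level is uncertain. The transcript Gm21986 overlaps 3823 bases of Nlgn3 exons on the same strand and received 2 to 8 counts.

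Nlgn2, the neuroligin of inhibitory synapses and no member of the list, stood at 128 and 165 CPM in the control pair, 93.4 and 103 in the tau pair and 139 and 142 in the treated tau pair. It was the only one of 73 tested partner genes called in treated tau against tau by the quasi-likelihood test (log2 fold change 0.52 ± 0.12, adjusted p = 0.0414). Its share of neuroligin counts was 31.3% and 34.1% in the control pair, 24.4% and 25.4% in the tau pair and 29.9% and 31.5% in the treated tau pair. Both tau shares lay below those of every other library. The 95% Wilson intervals drawn for such shares cover counting error only, since the reads carry no molecular identifiers, and with 2 libraries against 2 an exact permutation test cannot go below p = 0.333.

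**Figure D2:**
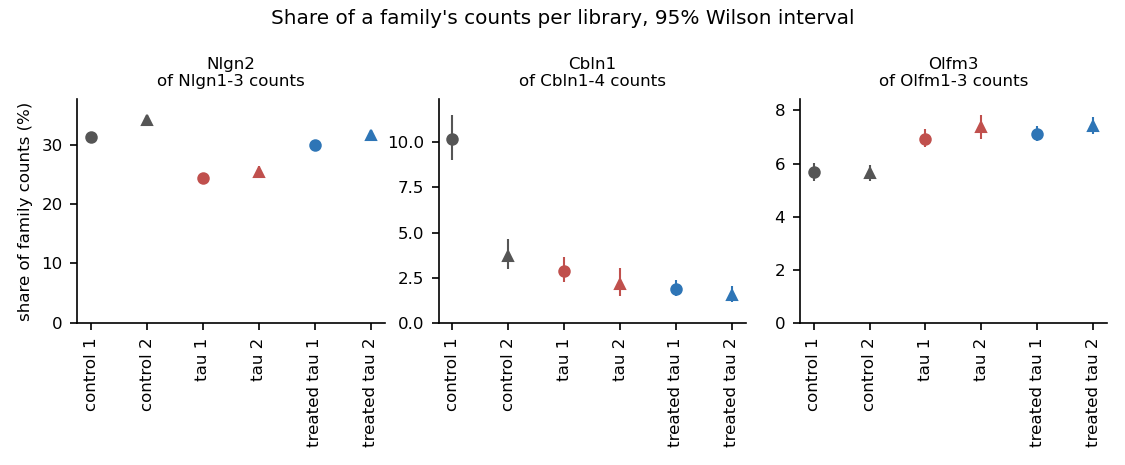
Share of a gene in the summed counts of its family (vertical axis, percent, from 0) for Nlgn2 among neuroligins, Cbln1 among cerebellins and Olfm3 among Olfm1, Olfm2 and Olfm3 in each of the 6 libraries, with 95% Wilson intervals. Nlgn2 has its lowest shares in the 2 tau libraries, Cbln1 has its highest (10.2%) in the library labelled control 1, and Olfm3 has its lowest in the 2 control libraries.

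Cbln2, the most abundant cerebellin gene here (chromosome 18, 86711110 to 86718283), measured 72.6 CPM (the library labelled control 1) and 72.4 CPM in the control pair. The tau pair measured 78.3 and 67.2 CPM, and the treated tau pair 93.0 and 109.5 CPM. Both treated tau libraries lay above all of the others, and the control libraries lay inside the range of tau. Means were 72.5 ± 0.125 CPM in control, 72.8 ± 7.89 in tau and 101 ± 11.7 in treated tau (SD). Cbln2 rose 1.39-fold from tau to treated tau (log2 fold change 0.47 ± 0.11, adjusted p = 0.0441), a comparison that shares the treated tau libraries with the contrast for which the gene was chosen. In tau against control, which shares the control libraries with that contrast, the log2 fold change was 0.01 ± 0.11 (adjusted p = 0.987).

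Cbln4, a cerebellin made by subsets of neurons (chromosome 2, 172036233 to 172043466), was low, with 107 to 332 counts per library. It had 7.22 and 5.49 CPM in the control pair, 5.12 and 6.13 in the tau pair and 9.70 and 7.72 in the treated tau pair. The treated tau libraries lay above the other 4, whose groups overlapped. The log2 fold change of treated tau against tau was 0.66 ± 0.21, larger than that of Cbln2, and did not pass (adjusted p = 0.195). For tau against control it was -0.19 ± 0.23 (adjusted p = 0.782).

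Cbln1, the cerebellin known from cerebellar granule cells (chromosome 8, 87468405 to 87472609), measured 9.12 CPM (231 counts) where the label is control 1, and 3.06 CPM (78 counts) in its partner. The tau pair measured 2.50 and 1.60 CPM and the treated tau pair 1.96 and 1.83 CPM. The library labelled control 1 thus stood far above the other 5, and control 2 lay just above tau 1. The log2 fold change of tau against control was -1.51 ± 0.50 (adjusted p = 0.442). It was -0.52 without the library labelled control 1 (adjusted p = 0.626), and -2.10 without control 2, where it passed (adjusted p = 0.0145).

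The summed olfactory bulb markers and Cbln1 were both highest in the library labelled control 1, but single markers differed. Kctd12b was not raised there (3.32 CPM, against 2.97 to 4.23 CPM over the 6 libraries), and Lhx1 and Lhx5 had 0 to 4 counts per library. Cdhr1, a cadherin of mitral cells, had 56.9 CPM in the library labelled control 1 and 2.31 to 4.26 CPM elsewhere, and Th, the enzyme of dopamine synthesis in periglomerular cells, 27.7 against 0.820 to 2.27 CPM. Of the 10 olfactory bulb markers 5 passed the filter, and the median of their log2 deviations from their own means was 3.47 there and -0.32 or lower in the others. The summed cerebellar markers, with Car8 and Zic1 leading, were 45.8 CPM in that library and 33.6 to 48.1 CPM in the others. The summed thalamic markers were 116 against 55.1 to 69.7 CPM, of which Calb2, also made in the olfactory bulb, held 68.9 CPM, and Gbx2 was at 0 in all 6 libraries. The part of tissue composition in the Cbln1 difference was not tested. In bulk tissue, fewer cells of a type and less RNA per cell cannot be told apart.

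**Figure D3:**
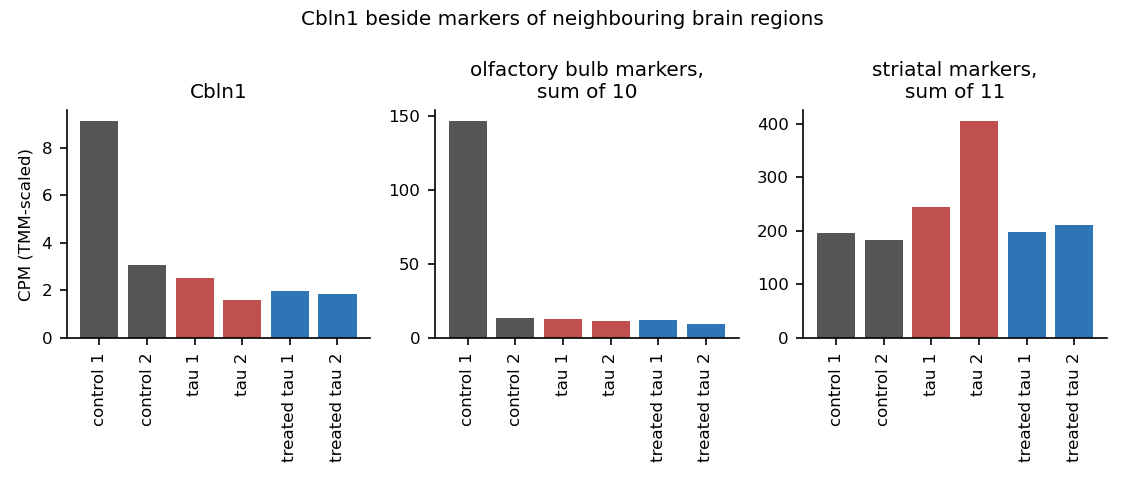
CPM (vertical axes, from 0) of Cbln1, of 10 olfactory bulb markers summed and of 11 striatal markers summed, with 1 bar per library. Cbln1 and the olfactory bulb markers are both highest in the library labelled control 1 (9.12 and 147 CPM), and the striatal markers in tau 2 (405 CPM).

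Grid1, which encodes a receptor that cerebellins reach across the synapse, did not pass in either test. It had 66.6 and 70.6 CPM in the control pair, 69.0 and 68.3 in the tau pair and 76.8 and 76.2 in the treated tau pair (log2 fold change 0.16 ± 0.08 against tau, adjusted p = 0.543). Cbln3, a cerebellin of the cerebellum, was near the limit of detection at 7 to 38 counts per library.

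Olfm1, the most abundant of the 9 genes (chromosome 2, 28192992 to 28230736), measured 680.04 and 768 CPM in the control pair, 737 and 672 in the tau pair, and 758 and 764 in the treated tau pair. The treated tau libraries lay above tau and inside the range of control. The log2 fold changes were -0.04 ± 0.08 (tau over control, adjusted p = 0.886) and 0.11 ± 0.08 (treated tau over tau, adjusted p = 0.697).

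Olfm3 (chromosome 3, 114904078 to 115125722) measured 43.6 CPM (the library labelled control 1) and 49.5 CPM in the control pair. The tau pair measured 58.7 and 57.9 CPM, and the treated tau pair 62.8 and 66.0 CPM. The 3 groups did not overlap and were ordered control, tau, treated tau. The choice of the gene had already placed treated tau above control, so only the place of tau in this order was free. Means were 46.6 ± 4.23, 58.3 ± 0.577 and 64.4 ± 2.28 CPM (SD). Neither step passed on its own: the log2 fold change was 0.32 ± 0.10 for tau against control (adjusted p = 0.442) and 0.14 ± 0.10 for treated tau against tau (adjusted p = 0.661), and both share libraries with the contrast that chose the gene. Its share of the counts of Olfm1, Olfm2 and Olfm3 was 5.67% and 5.65% in the control pair, 6.94% and 7.36% in the tau pair and 7.12% and 7.42% in the treated tau pair. The tau and treated tau shares overlapped. Olfm2, which was measured beside it, had 44.9 and 58.7 CPM in the control pair, 50.8 and 56.6 in the tau pair and 61.35 and 59.6 in the treated tau pair.

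Tau against control compares the groups by their labels, and the library labelled control 1 had Prnp inside the transgenic range (1654 CPM). It also came from a male, while both tau libraries came from females, so an effect of the transgene cannot be told apart here. By the quasi-likelihood test of edgeR 0 of the 9 genes passed, against 0% of all 20694 genes tested, with 3 of the 9 (Nrxn2, Cbln1 and Olfm3) at an unadjusted p under 0.05, as were 2059 of all 20694. DESeq2 called 1, Nrxn2, beside 50 of the 12670 genes to which it gave an adjusted p. It gave none to Cbln1. With limma-voom 0 were called. The log2 fold changes were positive for 3 and negative for 6 of the 9, with a median of -0.10 beside -0.003 over all genes. The values of tau and control did not overlap for 4 genes (Nrxn2, Nrxn3, Cbln1 and Olfm3), 1 higher and 3 lower in tau, and 41.6% of all genes had no overlap (20.3% higher, 21.3% lower).

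Treated tau against tau compares PS19 mice with and without the compound, but treated mice were male and tau mice female, so compound and sex cannot be told apart. The treated tau tables were also counted on a different symbol list. Of the 9 genes 2 were called, Nrxn2 and Cbln2, both higher, against 3.76% of all genes called (3.09% higher, 0.677% lower). Of the 14716 coding genes in the same fit 159 were called, 74 higher and 85 lower. Cbln2 and Olfm3 were listed for their treated tau values, which this comparison uses again, so the counts over the 9 genes are not independent of the choice. The log2 fold change was positive for 7 of the 9, with a median of 0.14, beside 48.7% positive and a median of -0.006 over all genes. The treated tau libraries lay above the tau libraries without overlap for 6 genes (Nrxn2, Nlgn3, Cbln2, Cbln4, Olfm1 and Olfm3) and below for 0, while 41.3% of all genes did not overlap (21.2% above, 20.1% below). Both calls were lost when the 14716 protein-coding genes were fitted alone (adjusted p = 0.131 for Nrxn2 and 0.166 for Cbln2), where 42 genes were called in place of 779, and when tau 1, tau 2, treated tau 1 or treated tau 2 was omitted (0.0915 to 0.266 for Nrxn2, 0.059 to 0.386 for Cbln2). The call of Cbln2, but not that of Nrxn2, was also lost with limma-voom (0.0523), with no filter (0.0955), with a stricter filter (0.0501), with the replicate block (0.0746) and without both the library labelled control 1 and tau 2 (0.0787).

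Beside these changes, striatal markers were lower in treated tau than in tau, with Drd2, Gpr6 and Rgs9 called, 3 of 11 in a list with 11 negative log2 fold changes. Of 6 endothelial and mural markers Cldn5 was called higher, and the list had 3 positive log2 fold changes and a median of 0.06. All 8 excitatory cortical markers had positive log2 fold changes (median 0.14), and 0 passed by edgeR, with 1 at an unadjusted p under 0.05. All 8 oligodendrocyte markers had negative ones (median -0.52, 0 called, 0 at an unadjusted p under 0.05). Their sum was 2514 CPM in tau 1 and 5673 CPM in tau 2, with 2641 and 2943 CPM in treated tau. Only tau 2 thus lay above the treated tau libraries. The summed excitatory markers were 2685 and 2587 CPM in tau and 2943 and 2825 in treated tau, with 2437 (the library labelled control 1) and 2932 CPM in the control pair. The part of these differences in the values of the 9 genes was not tested.

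Treated tau against control was used to choose 2 of the genes, so its values only describe them. Cbln2 had a log2 fold change of 0.48 ± 0.11 and Olfm3 of 0.47 ± 0.10. Cbln4 had 0.47 ± 0.20, Nlgn1 0.10 ± 0.09, Olfm1 0.07 ± 0.08, Nlgn3 0.00079 ± 0.10, Nrxn2 -0.09 ± 0.08, Nrxn3 -0.12 ± 0.07 and Cbln1 -1.68 ± 0.47. The 2 genes past the threshold, beside 4.22% of all genes (3.32% higher, 0.899% lower), are Cbln2 and Olfm3, which the choice of genes fixed, so the count is no result. In this contrast values did not overlap for 6 of the 9, 3 higher and 3 lower, beside 46.3% of all genes (23% higher, 23.3% lower). Without the library labelled control 1, Cbln1 was at -0.68, Olfm3 at 0.38, Cbln4 at 0.68 and Nlgn1 at 0.02, and the sign turned for Nlgn3 (-0.096) and Olfm1 (-0.0083).

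**Figure D4:**
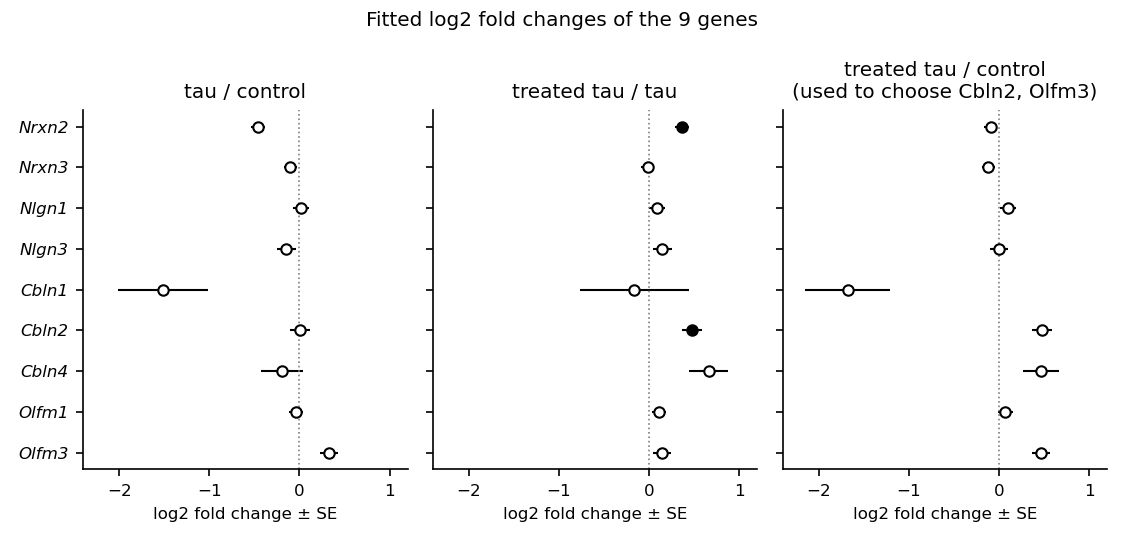
Log2 fold changes with standard errors (horizontal axes) of the 9 genes in tau against control, treated tau against tau, and treated tau against control. Filled symbols mark the calls of the quasi-likelihood test (Nrxn2 and Cbln2 in the second panel), and the third panel carries no test.

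The wider set of synaptic adhesion partners was read from lists of 74 genes, of which 73 were tested. In tau against control 0 were called by edgeR and limma-voom, and 12 of 73 had an unadjusted p under 0.05, beside 2059 of all 20694. DESeq2 called 2, Nlgn2 and Mdga1, both lower, beside 50 of the 12670 genes to which it gave an adjusted p. The log2 fold change was positive for 31 of 73 (median -0.04). The gene of smallest p in 8 of the 9 lists was as follows. It was Nlgn2 at -0.58 ± 0.12 among the relatives, Lrrtm2, a postsynaptic neurexin ligand, at 0.44 ± 0.13, and Mdga1, which blocks neuroligins from binding neurexins, at -1.65 ± 0.42. It was Ptprf, a LAR-type phosphatase, at -0.40 ± 0.11, Tenm4, a teneurin, at -0.27 ± 0.09, Ntng1, a netrin-G, at -0.29 ± 0.15, and Cadm1, a SynCAM, at 0.14 ± 0.07 in their lists. For the Nogo receptor and AMPA receptor list it was Lingo1 at -0.23 ± 0.09. The adjusted p of these 8 genes lay between 0.442 and 0.541. Mdga1 measured 18.04 and 7.10 CPM in the control pair and 3.32 and 4.93 CPM in the tau pair. Its highest library, labelled control 1, was also the one with the highest olfactory bulb markers, and control 2 also lay above the tau pair. The part of tissue composition in the Mdga1 difference was not tested.

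Comparing treated tau with tau, 58 of the 73 partner genes had a positive log2 fold change (median 0.11), beside 48.7% of all genes. The 1 gene called (Nlgn2) stands beside 3.76% of all genes, and beside 159 of 14716 coding genes in the same fit (74 higher). The 9 with an unadjusted p under 0.05 stand beside 2476 of all 20694 and 1282 of the 14716 coding genes. Besides Nlgn2, the smallest p of each list belonged to Clstn1, a calsyntenin (0.20 ± 0.07), Grid1, the postsynaptic scaffold gene Shank3 (0.33 ± 0.10), the neurotrophin receptor gene Ntrk3 (0.33 ± 0.09) and the latrophilin gene Adgrl1 (0.30 ± 0.09). Lrrc4, a ligand of netrin-G (0.12 ± 0.08), Cadm3 (0.11 ± 0.08) and Lingo1 (0.30 ± 0.09) led the remaining lists. Their adjusted p ranged from 0.121 for Adgrl1 to 0.663 for Cadm3. Treated tau lay above tau without overlap for 30 of the 73 and below for 3, beside 21.2% and 20.1% of all genes. The call of Nlgn2 was lost in the fit of protein-coding genes, with no filter, with a stricter filter and when any 1 tau or treated tau library was omitted. For treated tau against control, 0 partner genes were called by edgeR, DESeq2 or limma-voom, and 7 had an unadjusted p under 0.05. Over all genes edgeR called 4.22%, and 3363 of 20694 had an unadjusted p under 0.05. Of the 14716 coding genes 136 were called and 1485 had an unadjusted p under 0.05.

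**Figure D5:**
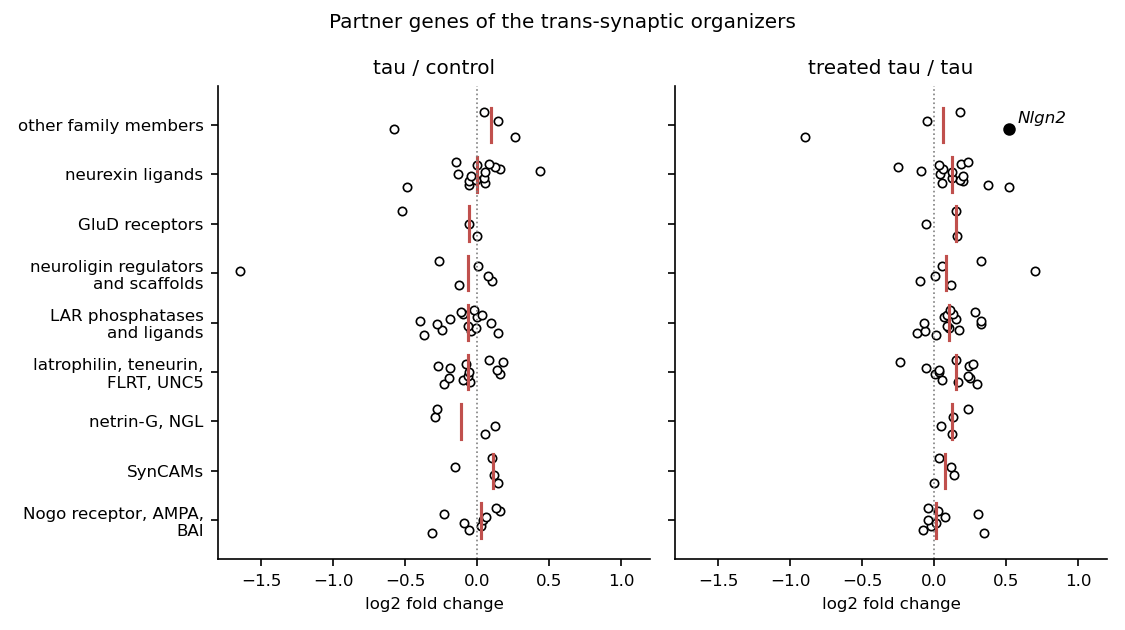
Log2 fold changes (horizontal axes) of the 73 tested partner genes in 9 lists, for tau against control and treated tau against tau, with a red line at each list's median. Filled symbols mark called genes, of which there is 1, Nlgn2 in treated tau against tau at 0.52.

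The genes whose level followed each of the 9 most closely over the 6 libraries were read from 10026 coding genes by Pearson's r of log2 CPM. With so few libraries many genes follow any pattern, and between 30 genes for Cbln4 and 224 for Olfm3 had an r above 0.9. Nrxn2 was followed by Bahcc1 (r = 0.998) and Hdhd5 (0.992), Nrxn3 by Hnrnpu (0.975) and Cfap69 (0.967). For Nlgn1 the closest were Kcnj3 (0.975) and Dynll2 (0.974), and for Nlgn3 Cdc7 (0.997) and Lman2l (0.996). The closest to Cbln1 were Plxna3 and Notch2 (both 0.989), to Cbln2 Kansl3 (0.993) and Vps26b (0.989), and to Cbln4 Cdk16 (0.985) and Cdr2l (0.984). Olfm1 was followed by Bloc1s3 (0.992) and Exph5 (0.98), and Olfm3 by Ppp1r9a (0.999) and Elavl4 (0.992). Bahcc1 had 12.7 and 14.7 CPM in the control pair, 8.10 and 8.71 in the tau pair and 12.2 and 12.8 in the treated tau pair. Its order of groups is that of Nrxn2, which follows from its choice by r over the same libraries.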

How the data were processed

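The authors deposited 1 table per library of raw read counts, with a gene symbol in each row. Per the labels' protocols, ribosomal RNA was removed from total RNA, stranded libraries were sequenced on an Illumina HiSeq, Cutadapt removed adapters, and TopHat2 aligned the reads to mouse RefSeq transcripts. SAMtools, featureCounts, edgeR and mm10 are also named, per the submitters' processing notes. The sources used here do not give the strand setting or the handling of multiple alignments. The design text gives 2 mice per group. Replicate libraries differed beyond sampling noise (chi-square per gene from 10.2 to 15.3).

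Counts of the shared symbols passed filterByExpr (minimum count 10) and TMM scaling, and edgeR 4.0.16 in R 4.3.3 tested them by quasi-likelihood over all 6 libraries (two-sided, 3 residual degrees of freedom). Adjusted p is Benjamini-Hochberg over 20694 genes, called under 0.05. DESeq2 1.42.0, limma-voom (limma 3.58.1) and the other alternatives are in the closing section. Positions, classes and exon lengths come from GENCODE M21 (mm10), which matched 20513 tested symbols. The genes, lists and naming rule were chosen with earlier results of these data known. The rule named all 9 genes, Nlgn2, Cbln3, Olfm2, Grid1, each partner list's called genes or its gene of smallest p, and called or leading markers, of which those of lists that moved with no result are left out. Likeness used coding genes with an average log2 CPM of at least 3 (prior count 2). Some results the rule names are not reported here.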

Additional observations from a re-analysis of the deposited data

How the results depend on the processing

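With 2 libraries per group, few degrees of freedom limit every call. Every setting that leaves out libraries leaves 1 library in at least 1 group, and the calls over all genes can change there too. A higher count of calls in such a setting is therefore not read as a result, for the 9 genes or for the partner genes. The number of the 9 genes called in tau against control was 0, and 1 with DESeq2, 0 to 1 when 1 library was left out, and 1 without both the library labelled control 1 and tau 2, a pair chosen after seeing the data. Between treated tau and tau it was 2, and 1 with limma-voom, with no filter, with a stricter filter (minimum count 50), with the replicate block and without that pair, 0 with protein-coding genes only, and 0 to 2 with 1 library left out. Between treated tau and control, where the choice of genes fixed the count and nothing is read from it, it was 2, and 3 with DESeq2 (Cbln1 lower, besides Cbln2 and Olfm3), 1 with no filter, with a stricter filter and without that pair, 0 with protein-coding genes only, and 0 to 2 with 1 library left out. Partner genes called in tau against control were 0, and 2 with DESeq2, 3 without that pair and 0 to 1 with 1 library left out. Between treated tau and tau they were 1, and 2 with DESeq2, 0 with no filter, with a stricter filter or with protein-coding genes only, 5 without that pair and 0 to 4 with 1 library left out. Between treated tau and control they were 0, and 0 to 2 with 1 library left out. Over all genes, treated tau against tau had 779 calls, 42 with protein-coding genes only and 354 to 840 with 1 library left out, treated tau against control 873, 36 and 495 to 817, and tau against control 0, 50 with DESeq2, 130 without that pair and 0 to 98.

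Values near 0 changed sign. In tau against control, Nlgn1 was at -0.0048 with a stricter filter, -0.0071 with protein-coding genes only, -0.083 without that pair and -0.067 without the library labelled control 1, and Cbln2 at -0.015 with either of the first 2 settings and -0.11 without tau 1. With 1 library left out, values in that comparison ran from -0.067 to 0.11 for Nlgn1, -0.11 to 0.11 for Cbln2, -0.38 to 0.021 for Cbln4 and -0.12 to 0.0503 for Olfm1, and in treated tau against tau from -0.058 to 0.029 for Nrxn3 and -0.39 to 0.24 for Cbln1. The cause of these shifts was not tested. Nrxn2 kept its direction in all 14 alternatives, negative in tau against control and positive in treated tau against tau. In treated tau against tau, Nlgn1, Nlgn3, Cbln2, Cbln4, Olfm1 and Olfm3 also stayed positive in all 14. In tau against control, Nrxn3, Nlgn3 and Cbln1 stayed negative and Olfm3 positive in all 14. All 14 read the same libraries again. Where the values of 2 groups do not overlap, leaving out 1 library can hardly turn the sign. A direction kept in all 14 is therefore no independent support. The numbers in the sample titles did not pair the libraries (correlation of deviations 0.0101, -0.00799 and 0.0733 between groups), and the replicate block changed the call of Cbln2 alone among the 9 genes in treated tau against tau. For treated tau against control it exchanged Cbln2 for Cbln1.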

Other observations

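The C1q-like genes, secreted relatives of the cerebellins that also bind neurexins, were read beside them. C1ql3 was the most abundant, at 86.3 and 120.3 CPM in the control pair, 119 and 95.3 in the tau pair and 107 and 117 in the treated tau pair, and the groups overlapped. C1ql1 was highest, at 3.47 CPM, where the label is control 1, had 1.999 CPM in its partner, 2.03 and 1.83 in the tau pair and 2.92 and 2.65 in the treated tau pair. C1ql2 stayed between 0.470 and 0.906 CPM. Of the neurexophilins, which are secreted ligands of alpha-neurexins, Nxph1 lay between 43.8 and 48.2 CPM in all 6 libraries, and Nxph3 had its highest value, 32.6 CPM, in treated tau 2. Olfm4, the olfactomedin known from intestine, was below the filter in all libraries together, at 0.0573 to 0.631 CPM.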
